A study of Mus musculus with 18 samples.

Results

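The suppressor of cytokine signalling genes Socs1 to Socs7 and their relative Cish were followed through 18 RNA sequencing libraries of mouse macrophages. Members were the genes carrying these 8 symbols in the 2 deposited count tables, out of 23052 symbols in each table, and all 8 passed the filter on low counts in both. The cells were bone marrow-derived macrophages of wild type C57BL6/J mice, grown for 7 days in 20% L929-conditioned medium, a source of the growth factor CSF1, and 80% DMEM. In the stimulation set, macrophages were given IL-4 for 6 h (2 libraries), given LPS for 6 h (2 libraries) or left untreated (2 libraries). In the tolerant set, every group was labelled endotoxin-tolerant, meaning blunted towards renewed endotoxin, and the groups differed in the medium. They lacked glutamine but received α-ketoglutarate (AKG, a metabolite that cells make from glutamine), lacked glutamine, or had glutamine, with 4 libraries each. The labels do not state how tolerance was induced or how long the media were applied, and the tolerant table holds no column of non-tolerant cells. Depth was 34.2 to 39.8 M counts a library in the stimulation set and 28.3 to 37.8 M in the tolerant set.

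SOCS proteins are brakes that a cytokine switches on against itself. A cytokine receptor activates Janus kinases, these phosphorylate STAT transcription factors, and the STATs drive SOCS genes whose proteins then block the receptor or the kinase. Each member carries an SH2 domain that binds phosphorylated tyrosine and a SOCS box that recruits elongins and a cullin to mark bound proteins for degradation. In macrophages, SOCS1 is best known for restraining interferon and IL-4 signals, and SOCS3 for restraining IL-6 type cytokines through their shared receptor chain gp130. CIS and SOCS2 are known as brakes on STAT5 signalling by growth hormone and related hormones. SOCS4 to SOCS7 have long amino-terminal ends and have been linked mostly to receptor tyrosine kinases and insulin signalling.

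Cish lies at chr9:107296026-107302784 (plus strand, GRCm38), Socs1 at chr16:10782240-10785536 (minus strand), Socs2 at chr10:95385362-95417180 (minus strand) and Socs3 at chr11:117966079-117970047 (minus strand). Socs4 lies at chr14:47276931-47296102, Socs5 at chr17:87107679-87137839 and Socs7 at chr11:97362551-97398542, all on the plus strand. The exons of Cish overlap those of 2 transcripts on the other strand, Gm17040 and Gm17041, and since the labels do not state whether counting used the strand, reads of these transcripts cannot be told apart from those of Cish. The other 7 genes share no exon with another gene in GENCODE vM21.

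RefSeq promoters (GRCm38.p6, 250 bases before to 50 bases after the transcript start) were found for 4 of the 8 genes. The 3 below belong to the genes with the largest changes among them, and the capitals mark letters of the consensus sequences TTCNNNGAA, the usual STAT5 and STAT3 core, and GAAANNGAAA, an interferon response core. Both strands were searched. They were also searched for TTCNNNNGAA, the spacing that STAT6 prefers.
Cish, chr9:107296409-107296708, plus strand: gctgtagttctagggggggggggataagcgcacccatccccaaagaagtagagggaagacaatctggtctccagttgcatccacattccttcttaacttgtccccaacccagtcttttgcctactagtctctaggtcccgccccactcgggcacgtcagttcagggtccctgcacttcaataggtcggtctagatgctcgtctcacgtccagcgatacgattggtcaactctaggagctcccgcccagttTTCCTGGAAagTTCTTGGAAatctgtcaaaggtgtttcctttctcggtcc
Socs1, chr16:10785487-10785786, minus strand: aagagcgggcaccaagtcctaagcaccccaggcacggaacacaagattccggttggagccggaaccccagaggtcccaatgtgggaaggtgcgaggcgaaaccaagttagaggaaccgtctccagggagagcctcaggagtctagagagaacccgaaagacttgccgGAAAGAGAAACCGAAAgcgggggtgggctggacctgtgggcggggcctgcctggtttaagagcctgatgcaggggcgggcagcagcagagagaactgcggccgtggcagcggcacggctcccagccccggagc
Socs3, chr11:117969317-117969616, minus strand: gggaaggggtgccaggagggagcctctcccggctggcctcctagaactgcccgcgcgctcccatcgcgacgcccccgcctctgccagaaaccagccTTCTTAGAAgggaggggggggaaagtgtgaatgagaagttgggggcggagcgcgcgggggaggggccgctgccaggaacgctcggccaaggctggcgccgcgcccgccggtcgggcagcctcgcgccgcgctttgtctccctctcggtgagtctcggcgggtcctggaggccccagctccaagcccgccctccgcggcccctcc
The Cish promoter held 2 matches to TTCNNNGAA, TTCCTGGAA at the transcript start and TTCTTGGAA beginning 11 bases after it. Of 32851 mouse promoters of the same length, 8.3% held at least 1 such match and 0.457% held 2 or more. The Socs3 promoter held 1 match, TTCTTAGAA, 154 bases upstream of the start. The windows of Cish and Socs3 lie wholly inside the gene spans given above. Their matches are placed by the RefSeq start and lie within the genes as annotated there. The Socs1 promoter held no match to TTCNNNGAA but 2 overlapping matches to GAAANNGAAA, beginning 83 and 77 bases upstream. Here 3.44% of promoters held at least 1 match and 0.225% held 2 or more. The window of Socs4, chr14:47276670-47276969 on the plus strand, held none of the 3 motifs. No match to TTCNNNNGAA, present in 6.95% of promoters, was found in any of these 4 windows. A match describes letters and is not evidence of binding.

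All 11 macrophage markers, among them the CSF1 receptor gene Csf1r and the F4/80 gene Adgre1, were above 0 in every library, with summed levels of 30682 to 33028 CPM (counts per M counts of the library) with IL-4, 39970 to 41497 CPM with LPS and 36077 to 53982 CPM elsewhere. Markers of stromal fibroblasts differed between tolerant groups and are given beside the tolerant results. Mast cell or basophil markers summed to at most 5.27 CPM in any library, and lymphocyte and erythroid markers to at most 0.627 CPM, so the macrophage label fitted the markers. Samples are bulk RNA, in which fewer cells making a transcript and less transcript per cell cannot be told apart. The labels do not say whether replicates came from separate animals or cultures, so p-values measure only the spread between these libraries. Levels are CPM scaled by trimmed mean of M values (TMM) within each table. The tables were normalized separately, so levels set side by side across them carry no test.

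**Figure D1:**
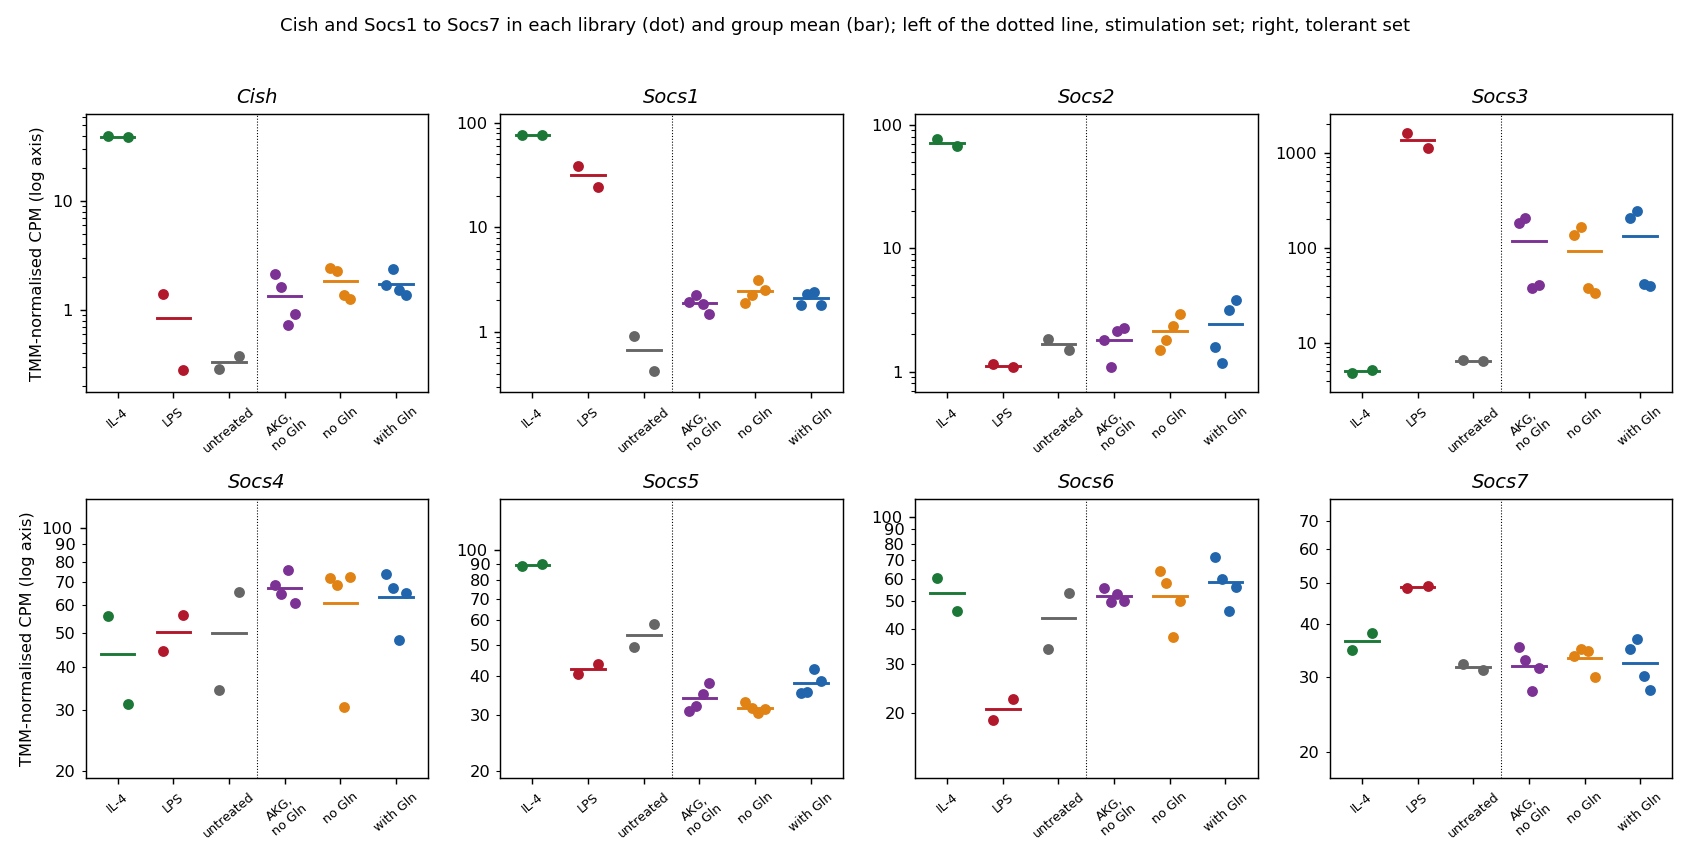
TMM-normalised CPM (log axis, a panel per gene) of the 8 genes in each library (dots) with the group mean (bar), the stimulation set left of the dotted line and the tolerant set right of it. Cish and Socs2 stand high with IL-4, Socs1 with IL-4 and LPS, and Socs3 with LPS (1130 and 1597 CPM), while Socs4 to Socs7 stay between 18.9 and 90.2 CPM everywhere.

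The first question was which of these brakes IL-4 switches on within 6 h. IL-4, a cytokine that signals through STAT6, raised Cish, Socs1, Socs2 and Socs5, and lowered none of the 8. The rises of Cish, Socs1 and Socs2 ranked 25, 26 and 51 among the rises of all 12506 genes tested. At an adjusted p under 0.05, 4 of 8 members rose, against 9.66% of all tested genes that rose and 20.1% that changed in either direction. The median log2 fold change of the members was 0.51, against -0.04 over all tested genes.

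Cish, which encodes CIS, had 39.5 and 38.9 CPM with IL-4 and 0.288 and 0.375 CPM untreated, where it had 12 and 16 counts. The groups lay far apart and did not overlap. The fitted fold was 117 and the log2 fold change 6.87 (SE 0.65, adjusted p = 0.0033). Socs1, the direct inhibitor of Janus kinases, had 75.8 and 75.6 CPM with IL-4 and 0.912 and 0.422 CPM untreated. Its IL-4 libraries were nearly alike and all 4 values separated by group (log2 fold change 6.82, SE 0.44, adjusted p = 0.00093). Socs2, the brake on growth hormone signalling, had 76.2 and 67.1 CPM with IL-4 and 1.85 and 1.501 CPM untreated. It was again high in both IL-4 libraries only (log2 fold change 5.42, SE 0.16, adjusted p = 5.4e-05).

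Socs5, reported to bind the IL-4 receptor and to limit growth factor receptors, was already well expressed and rose less. It had 88.7 and 90.2 CPM with IL-4 and 49.4 and 58.3 CPM untreated, a fold of 1.66 (log2 0.73, SE 0.12, adjusted p = 0.0087), with no overlap. The call was lost when IL-4 replicate 1 (0.75, adjusted p = 0.069) or replicate 2 (0.72, adjusted p = 0.076) was left out. Socs3, the brake on gp130, had 4.80 and 5.22 CPM with IL-4 and 6.55 and 6.36 CPM untreated. Both IL-4 libraries were lower, but the difference (log2 fold change -0.36, SE 0.19, adjusted p = 0.25) did not pass, and 2 SE around it ran from -0.74 to 0.01. Group values did not overlap in 58.3% of all tested genes, so separation alone says little with 2 libraries a group; it was 74.5% for LPS against untreated and 80.3% for IL-4 against LPS.

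The remaining long members did not pass with IL-4. Socs4 had 56.1 and 31.1 CPM with IL-4 and 34.2 and 65.6 CPM untreated, overlapping widely (log2 -0.20, SE 0.43, adjusted p = 0.82). Socs6, which binds insulin receptor pathway proteins and KIT, had 60.7 and 46.4 CPM with IL-4 and 33.98 and 53.4 CPM untreated (log2 0.29, SE 0.26, adjusted p = 0.51). Socs7, linked to insulin receptor substrates, had 34.8 and 38.1 CPM with IL-4 and 32.2 and 31.3 CPM untreated (log2 0.20, SE 0.10, adjusted p = 0.22). The ranges of 2 SE were -1.05 to 0.66 for Socs4, -0.22 to 0.81 for Socs6 and 0.01 to 0.39 for Socs7. These ranges are approximate: that of Socs7 lay above no change, while its unadjusted p in edgeR was 0.083.

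Around these brakes, genes listed for the IL-4 pathway also moved. The gene lists here and below were chosen with earlier results of these data known, so their counts describe the lists and are no evidence for a pathway. Only genes past the filter are counted. A low gene can pass it through the group where it is high, which favours changes towards that group in these counts. Of 12 tested STAT6 target genes 11 rose and none fell, with a median log2 fold change of 3.79. Arg1, the arginase gene of IL-4 activated macrophages, had 1117 ± 61.1 CPM with IL-4 and 2.73 ± 0.48 CPM untreated (SD, n = 2 each, log2 8.67, SE 0.23, adjusted p = 4.2e-05). Of 20 receptor chains 6 rose and 1 fell, Il4ra among the rises (1.09, SE 0.19, adjusted p = 0.012) and also Il6st, which encodes gp130 (1.16, SE 0.13, adjusted p = 0.0027). Csf2rb, the shared chain of GM-CSF and IL-3 type receptors, rose by 1.64 (SE 0.15, adjusted p = 0.0014). Of 11 Janus kinase and STAT genes 1 rose and 3 fell, and Jak2, a kinase gene, was the one that rose (2.12, SE 0.22, adjusted p = 0.0025). Stat6 itself had -0.33 (SE 0.10, adjusted p = 0.077).

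Other brakes and the degradation machinery moved less than Cish, Socs1 and Socs2. Of 13 other inhibitors of the pathway 2 rose, the ubiquitin ligase genes Cblb (1.72, SE 0.16, adjusted p = 0.0013) and Cbl (1.17, SE 0.18, adjusted p = 0.0074), and 2 fell, among them the phosphatase gene Ptpn6 (-0.62, SE 0.10, adjusted p = 0.0085). None of the 6 SOCS-box ligase subunits changed with IL-4 (median 0.03). Of 12 tested cytokine ligand genes 1 rose, Tslp, at 0.737 ± 0.162 CPM with IL-4 and 0.0954 ± 0.0686 CPM untreated (log2 2.92, SE 0.53, adjusted p = 0.014). Dendritic cell markers summed to 6.57 and 7.27 CPM with IL-4 and 1.08 and 1.22 CPM untreated, and 2 of the 4 tested, Zbtb46 and Flt3, rose. Their part in these results was not tested.

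LPS, which activates TLR4 and through it secreted cytokines, gave a different selection. Socs3, Socs1 and Socs7 rose and Socs2, Socs5 and Socs6 fell, so 6 of 8 members passed, against 52.1% of all tested genes (22.8% higher, 29.3% lower). With a background this high, the count of members called is not far from that of all genes, and the sizes of the changes are given gene by gene. The median of the members was 0.32, against -0.10 over all tested genes.

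Socs3 had 1597 and 1130 CPM with LPS and 6.55 and 6.36 CPM untreated, from 45906 and 32363 counts with LPS. Both LPS libraries were far above both untreated ones. The fitted fold was 211 (log2 fold change 7.72, SE 0.23, adjusted p = 2.6e-05), which ranked 27 among the rises of 12506 genes. Socs1 had 38.2 and 24.5 CPM with LPS and 0.912 and 0.422 CPM untreated, again without overlap. Its log2 fold change was 5.55 (SE 0.42, adjusted p = 0.00043). Socs7 had 48.7 and 49.1 CPM with LPS and 32.2 and 31.3 CPM untreated, a small rise with tight replicates (log2 0.62, SE 0.10, adjusted p = 0.0027). Its size depended on the scaling: by library totals in place of TMM, mean Socs7 was 39.5 CPM with LPS and 35.0 CPM untreated.

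Socs6 (chr18:88665224-88927481, minus strand) had 18.9 and 22.5 CPM with LPS and 33.98 and 53.4 CPM untreated, and its groups did not overlap. It fell by 1.08 on the log2 scale (SE 0.26, adjusted p = 0.019), with the call lost without LPS replicate 1 (-0.96, adjusted p = 0.12) or LPS replicate 2 (-1.20, adjusted p = 0.069). Socs2 had 1.15 and 1.08 CPM with LPS and 1.85 and 1.501 CPM untreated (log2 fold change -0.58, SE 0.17, adjusted p = 0.027). Socs5 had 40.4 and 43.6 CPM with LPS and 49.4 and 58.3 CPM untreated (log2 fold change -0.36, SE 0.12, adjusted p = 0.045). These 2 falls passed by little: with RLE size factors they were -0.49 (adjusted p = 0.068) for Socs2 and -0.26 (adjusted p = 0.12) for Socs5, and with DESeq2 the adjusted p was 0.15 for Socs2 and 0.11 for Socs5. Socs2 also lost its call without untreated replicate 1 (-0.33, adjusted p = 0.27), LPS replicate 1 (-0.63, adjusted p = 0.093) or LPS replicate 2 (-0.54, adjusted p = 0.12), and Socs5 without untreated replicate 2 (-0.23, adjusted p = 0.15), LPS replicate 1 (-0.30, adjusted p = 0.21) or LPS replicate 2 (-0.41, adjusted p = 0.11).

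Cish separated the 2 LPS libraries rather than the groups. It had 1.39 and 0.279 CPM with LPS, from 40 and 8 counts, and 0.288 and 0.375 CPM untreated. The first LPS library was above both untreated ones and the second was just below them, and the log2 fold change was 1.32 (SE 0.74, adjusted p = 0.20). Without LPS replicate 2 it was 2.06 (adjusted p = 0.0028), and without LPS replicate 1 it was -0.24 (adjusted p = 0.76), so a single library decided it. Socs4 had 44.3 and 56.3 CPM with LPS and 34.2 and 65.6 CPM untreated, with a log2 fold change of 0.01 (SE 0.43) and 2 SE from -0.85 to 0.87.

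Many tested genes of the surrounding lists rose with LPS. Of 17 listed cytokine ligand genes 12 passed the filter, and of these 8 rose and 2 fell (median log2 fold change 2.04). Il10 was among the rises, with 32.1 ± 8.74 CPM with LPS and 8.06 ± 0.541 CPM untreated (log2 1.99, SE 0.20, adjusted p = 0.00052). Il27, another STAT-activating cytokine, rose by 4.02 (SE 0.25, adjusted p = 0.00010). Il6, whose receptor gp130 SOCS3 restrains, had 4.79 ± 2.23 CPM with LPS and 0.0240 ± 0.0339 CPM untreated. With IL-4 it had 0.0242 ± 0.0025 CPM, so it passed the filter through its LPS libraries. Of 11 Janus kinase and STAT genes 7 rose and 1 fell, among the rises Stat3 by 1.85 (SE 0.16, adjusted p = 0.00030) and Jak2 by 3.58 (SE 0.24, adjusted p = 0.00015). Of 10 STAT3 target genes 9 rose (median 2.34). Stat6 had -0.25 (SE 0.10, adjusted p = 0.091).

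Receptor chains rose in 12 of 20 and fell in 4 with LPS, and Il4ra was among the rises, with 2539 ± 517 CPM with LPS and 150 ± 28.2 CPM untreated (log2 4.08, SE 0.21, adjusted p = 5.9e-05). Of 13 other brakes 6 rose and 1 fell, led by Usp18, which removes ISG15 and blocks the interferon receptor (3.66, SE 0.20, adjusted p = 6.9e-05), and the phosphatase gene Ptpn1 (2.04, SE 0.15, adjusted p = 0.00015). Of the 6 SOCS-box ligase subunits 4 rose, the elongin C gene Tceb1 most by p (1.19, SE 0.14, adjusted p = 0.00094). Neutrophil markers summed to 13.7 and 18.1 CPM with LPS and 3.56 and 3.84 CPM untreated, with Ly6g at 0 in every library of these groups. Dendritic cell markers summed to 5.2 and 5.88 CPM with LPS and 1.08 and 1.22 CPM untreated. Of the 4 tested 1 rose, Xcr1 (3.77, SE 0.21, adjusted p = 7.9e-05). Their part in the result was not tested.

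Set directly against LPS, IL-4 gave higher Cish, Socs1, Socs2, Socs5 and Socs6 and lower Socs3 and Socs7. That is 5 members higher, against 29.7% of all tested genes, and 2 lower, against 23.4% (53.1% in either direction). The comparison uses the same IL-4 and LPS libraries as those above, so it is no independent support for them. Socs3 had the largest difference, 4.80 and 5.22 CPM with IL-4 and 1597 and 1130 CPM with LPS (log2 -8.09, SE 0.24, adjusted p = 1.2e-05), a level 272 times higher with LPS by the fit. It ranked 29 in that direction. Socs2 was higher by 6.00 log2 units (SE 0.17, adjusted p = 1.1e-05) and Cish 5.55 (SE 0.60, adjusted p = 0.0015).

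Socs1, which both stimuli raised, was higher with IL-4, at 75.8 and 75.6 CPM against 38.2 and 24.5 CPM with LPS. The fold was 2.41 (log2 1.27, SE 0.33, adjusted p = 0.025), and the call was lost without LPS replicate 2 (0.98, adjusted p = 0.12) and without either IL-4 library (1.27, adjusted p = 0.085 each). Socs6 was 2.59 times higher with IL-4 (log2 1.37, SE 0.26, adjusted p = 0.0081) and lost its call without LPS replicate 1 (1.25, adjusted p = 0.065). Socs5 was 2.13 times higher (log2 1.09, SE 0.12, adjusted p = 0.00062). Socs7 was lower with IL-4 (log2 -0.42, SE 0.10, adjusted p = 0.012), a call that no set with 1 IL-4 or LPS library left out kept (adjusted p = 0.052 to 0.12). Scaled by library totals in place of TMM, mean Socs7 was 41.0 CPM with IL-4 and 39.5 CPM with LPS, the opposite order. Socs4 did not pass (-0.21, SE 0.43, adjusted p = 0.72).

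**Figure D2:**
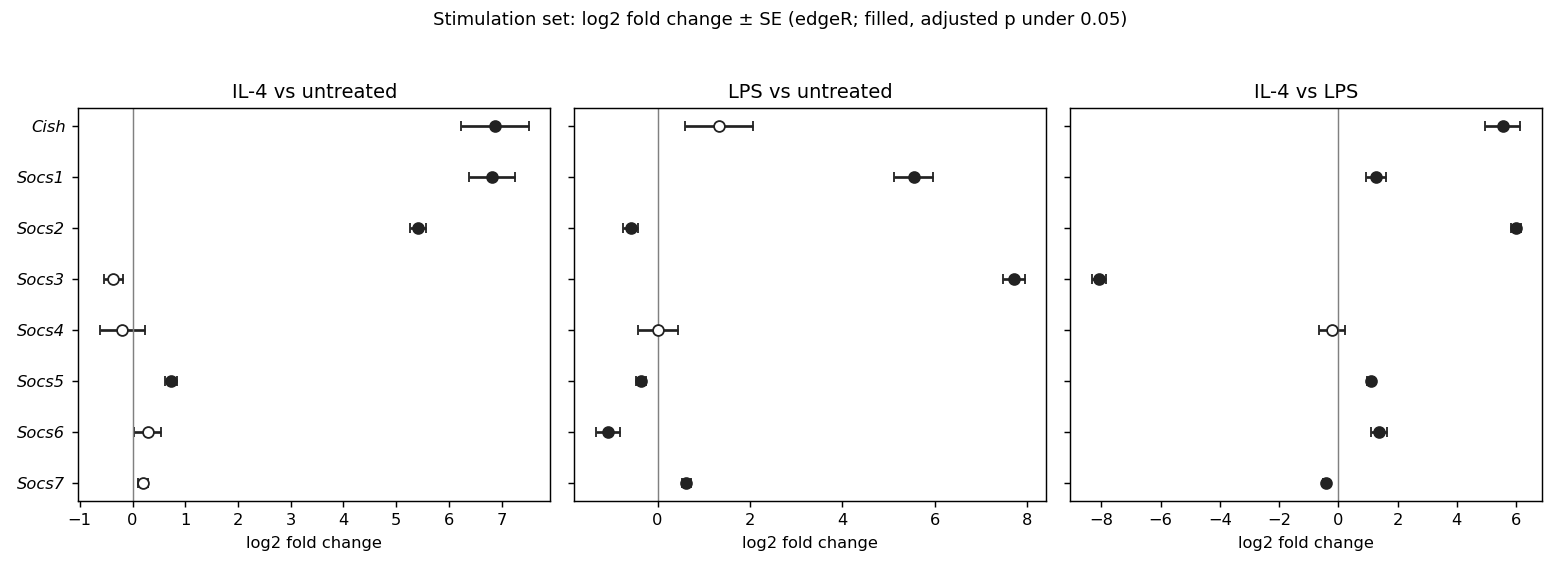
Log2 fold change (dot) ± SE (bar) of each gene in the 3 stimulation comparisons, filled where the adjusted p was under 0.05. Cish and Socs2 lie far to the right with IL-4 only, Socs1 with IL-4 and LPS, and Socs3 far to the right with LPS (7.72) and far to the left for IL-4 against LPS (-8.09).

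To compare the genes with each other, CPM were divided by the exon length of the protein-coding transcripts, in kb. The sum of the 8 genes was 104 ± 6.02 CPM per kb with IL-4, 573 ± 131 with LPS and 33.8 ± 6.45 untreated (SD, n = 2 each). Socs3 made up 93.2% of that sum with LPS, 1.89% with IL-4 and 7.63% untreated. With IL-4 the sum was spread over Socs2 (25.1%), Socs1 (25.0%), Socs5 (18.5%) and Cish (10.3%). In untreated cells Socs5 was the largest part (34.5%), followed by Socs4 (20.9%), Socs6 (20.5%) and Socs7 (13.7%), while Cish, Socs1 and Socs2 held 0.269%, 0.725% and 1.87%.

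Tolerant macrophages had a mixed profile. Their sum was 77.3 ± 34.7 CPM per kb with AKG, 67.4 ± 29.8 without glutamine and 85.2 ± 43.8 with glutamine (SD, n = 4 each), the large SD coming from Socs3. Socs3 was on average 51.6% of the sum with AKG, 48.4% without glutamine and 52.3% with glutamine. These means hide a wide spread over the libraries: 31.4 to 72.3% with AKG, 28.9 to 66.2% without glutamine and 31.9 to 73.4% with glutamine. Socs4, Socs5 and Socs6 each held a mean of 11.4 to 15.0% of it (5.95 to 23.5% in single libraries). Cish, Socs1 and Socs2 each held a mean of at most 1.55%.

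**Figure D3:**
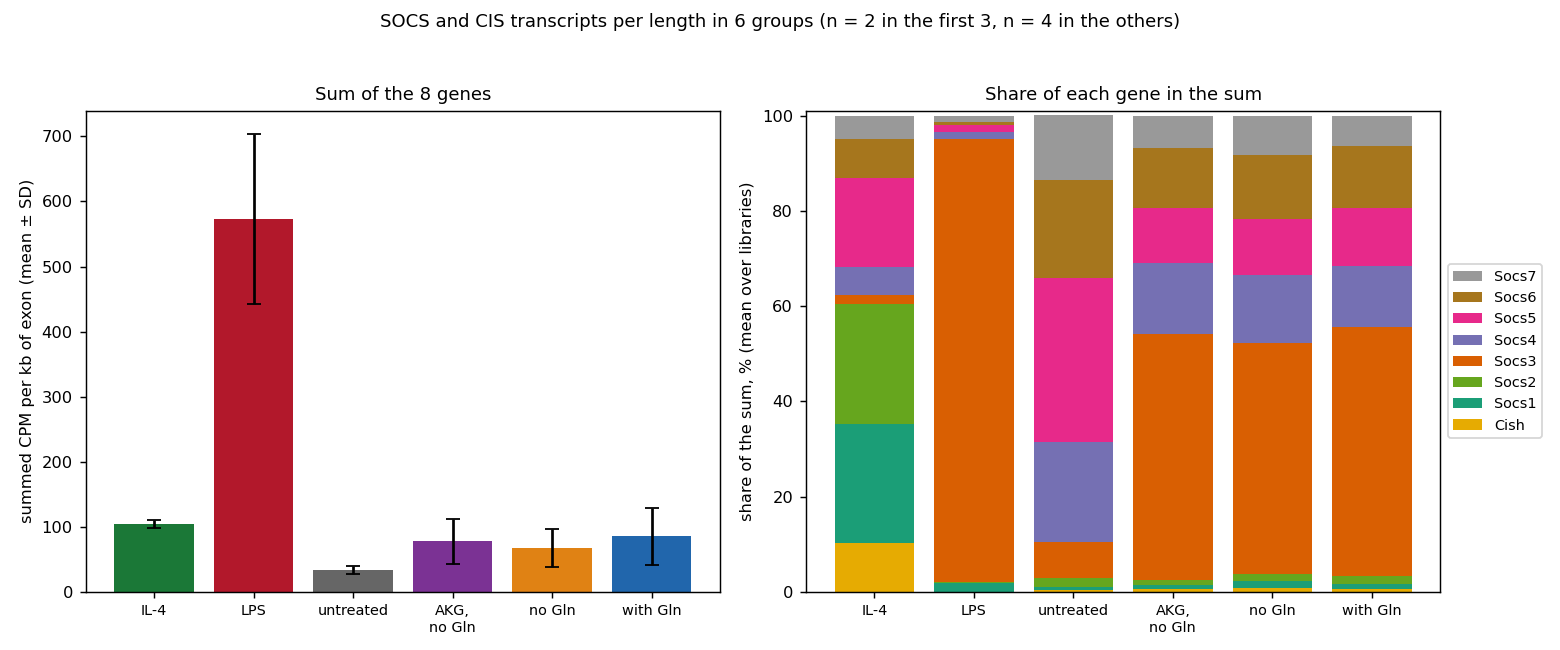
Left, the sum of the 8 genes in CPM per kb of exon (bars, mean; error bars, SD; n = 2 in the stimulation groups and 4 in the tolerant groups); right, the mean share of each gene in that sum, in percent. The LPS bar (573) is almost all Socs3 (93.2%), and the IL-4 bar is divided among Socs1, Socs2, Socs5 and Cish. Socs3 makes up a mean of 48.4 to 52.3% in the 3 tolerant groups, with 28.9 to 73.4% in their single libraries.

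Ordered by mean TMM-normalised CPM over the 6 groups, the inducible genes had a clear top and a crowded bottom. A gap between a tolerant and a stimulation group, here and in the next paragraph, lies between separately normalized tables. In such a gap set and treatment cannot be told apart, and it carries no test. Cish was highest with IL-4 (39.2 CPM), and its other 5 groups, from 1.84 CPM without glutamine to 0.332 CPM untreated, each overlapped the next. Socs1 was highest with IL-4 (75.7), then LPS (31.4), both apart from what followed. The tolerant groups came next (2.44 without glutamine, 2.09 with glutamine and 1.87 with AKG) and overlapped each other. They lay apart from untreated cells of the other table (0.667, from 18 and 38 counts). Socs2 was highest with IL-4 (71.6) and lowest with LPS (1.12), with the tolerant groups and untreated cells between 2.43 and 1.67 and overlapping.

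Socs3 was highest with LPS (1364), followed by tolerant cells with glutamine (132), with AKG (116) and without glutamine (93.1), which overlapped each other. Untreated cells (6.45) and IL-4 (5.01) came last and lay apart. Socs4 showed no separated neighbours at all, from 67.5 CPM in tolerant cells with AKG to 43.6 CPM with IL-4. Socs5 was highest with IL-4 (89.4) and then untreated (53.8), each apart from the next, and the 4 other groups overlapped in turn between 42.0 and 31.6 CPM. Socs6 was separated only at the bottom, with LPS at 20.7 CPM, and Socs7 only at the top, with LPS at 48.9 CPM.

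Within the tolerant set, the question was whether glutamine, or AKG in its place, changes these brakes. At 4 libraries a group, none of the 8 genes passed in any of the 3 comparisons with edgeR. Without glutamine against with it, 0 of 8 passed, against 4.7% of all tested genes. With AKG against without glutamine 0 of 8 passed, against 1.49%, and with AKG against with glutamine 0 of 8, against 0%. At an unadjusted p under 0.05 the members numbered 1, 0 and 0 in these comparisons, beside 2234, 1619 and 916 of all 12492 tested genes. DESeq2 called 1, 0 and 0 members, beside 1260, 682 and 232 of all tested genes. Member medians were -0.11, -0.03 and -0.16, against -0.01, 0.01 and 0 over all tested genes.

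A larger difference than that between media ran between replicate numbers, within every medium. Replicates 1 and 2 had mean Socs3 of 189 CPM (136 to 241) and replicates 3 and 4 of 38.5 CPM (33.2 to 41.3), over 6 libraries each, a ratio of 4.92 with no overlap. Cish was also higher in replicates 1 and 2 (mean 2.10 against 1.20 CPM), without overlap. Socs2 was lower there (1.49 against 2.76 CPM), again without overlap. The other 5 genes overlapped, with ratios of replicates 1 and 2 over 3 and 4 between 0.921 and 1.23. No label states what the replicate numbers stand for. The contrast is a description seen in the data, and no test was run on it. Over all tested genes, deviations from group means correlated by -0.838 to -0.567 across these numbers, so the contrast was not particular to the members. The share of all tested genes without overlap between these numbers was not counted, so the separation of Socs3, Cish and Socs2 has no background beside it.

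**Figure D4:**
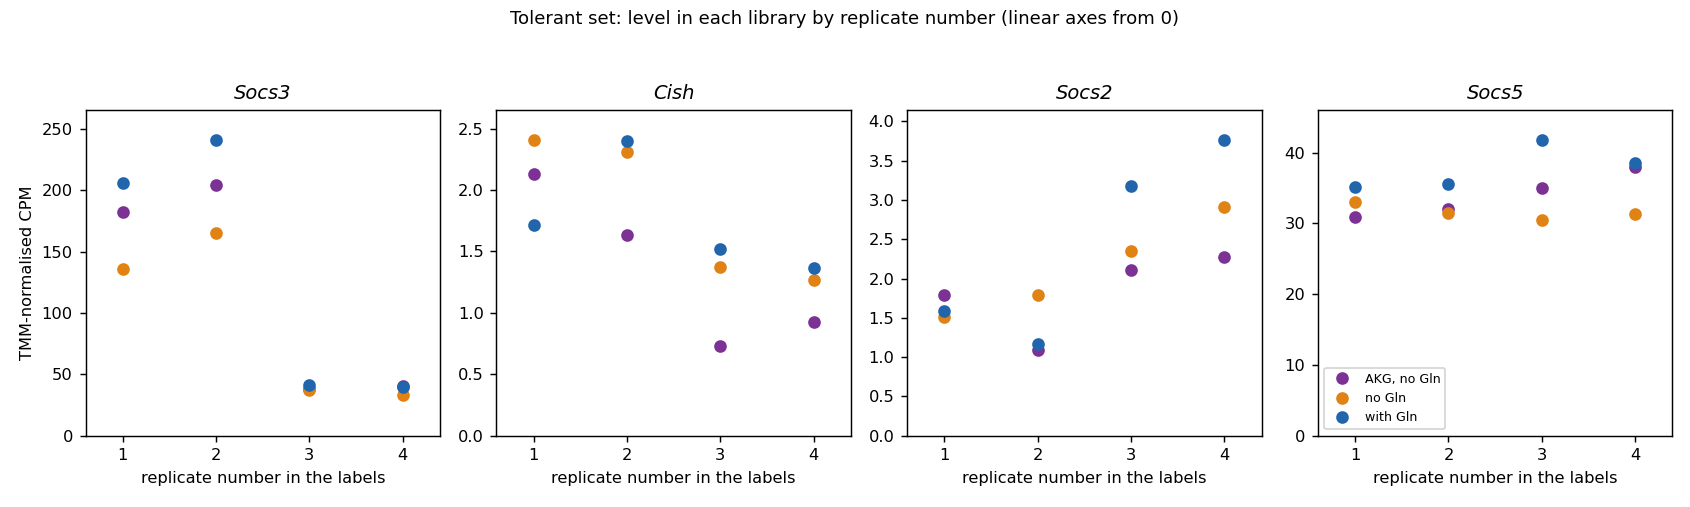
TMM-normalised CPM (linear axis from 0) of Socs3, Cish, Socs2 and Socs5 in the 12 tolerant libraries by the replicate number of the labels, with the medium in colour. Socs3 sits between 136 and 241 CPM in replicates 1 and 2 and between 33.2 and 41.3 CPM in replicates 3 and 4 of every medium.

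Same-numbered libraries deviated together from their group means, with r between 0.501 and 0.823 over 12 pairs, so the fit with the replicate number as a block is set beside. With it, Socs3 and Socs5 fell without glutamine against with glutamine, 2 of 8 members, against 21.7% of all tested genes. No member passed with the block in the comparisons of AKG with without glutamine (15.3% of all tested genes) or with glutamine (7.01%).

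Socs3 had 136, 166, 37.6 and 33.2 CPM without glutamine and 206, 241, 41.3 and 39.7 CPM with glutamine, in replicates 1 to 4. Each library without glutamine was below the same-numbered library with glutamine, while the groups as a whole overlapped. The log2 fold change was -0.50 (SE 0.81, adjusted p = 0.84) without the block and -0.39 (SE 0.08, adjusted p = 0.0094) with it. Within replicates 1 and 2 alone it was -0.57 (SE 0.12, adjusted p = 0.012), and within replicates 3 and 4 it was -0.17 (SE 0.09, adjusted p = 0.32). The difference between these, 0.37, had adjusted p = 0.32 (SE 0.17).

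With AKG, Socs3 had 182, 204, 38.0 and 40.9 CPM in replicates 1 to 4. These lay above the same-numbered libraries without glutamine in all 4 numbers and below those with glutamine in 3. With AKG against without glutamine the log2 fold change was 0.32 (SE 0.81, adjusted p = 0.92), and 0.26 (SE 0.08, adjusted p = 0.065) with the block. With AKG against with glutamine it was -0.18 (SE 0.81), and -0.13 (SE 0.08, adjusted p = 0.51) with the block.

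Socs5 had 33.0, 31.5, 30.5 and 31.4 CPM without glutamine and 35.2, 35.6, 41.8 and 38.5 CPM with glutamine. It was the only member whose groups did not overlap in this comparison, as they did not in 12.4% of all tested genes. Its log2 fold change was -0.26 (SE 0.08, adjusted p = 0.10), and -0.25 (SE 0.07, adjusted p = 0.033) with the block. Within replicates 1 and 2 it was -0.14 (adjusted p = 0.12), within 3 and 4 it was -0.35 (adjusted p = 0.051), and DESeq2 without the block gave -0.27 (adjusted p = 0.023). With AKG, Socs5 had 30.9, 32.1, 34.9 and 38.0 CPM, overlapping both other groups.

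Cish and Socs1 were low in every tolerant library. Cish had 2.13, 1.63, 0.731 and 0.923 CPM with AKG, 2.41, 2.31, 1.37 and 1.26 CPM without glutamine and 1.71, 2.40, 1.52 and 1.37 CPM with glutamine. The AKG libraries were below those without glutamine in all 4 numbers, but the log2 fold change of -0.45 did not pass (SE 0.36, adjusted p = 0.70, and 0.15 with the block). Socs1 had 1.91, 2.23, 1.87 and 1.48 CPM with AKG, 1.87, 2.25, 3.14 and 2.49 CPM without glutamine and 1.81, 2.32, 2.43 and 1.81 CPM with glutamine. All 3 groups overlapped, and for AKG against without glutamine the log2 fold change was -0.38 (SE 0.20, adjusted p = 0.49, and 0.16 with the block).

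Socs2 had 1.79, 1.09, 2.11 and 2.27 CPM with AKG, 1.51, 1.80, 2.35 and 2.90 CPM without glutamine and 1.59, 1.17, 3.18 and 3.77 CPM with glutamine. Its values followed the replicate number more than the medium, and 2 SE around the log2 fold change without glutamine against with it ran from -0.95 to 0.58. Socs4 had 68.5, 64.9, 75.8 and 60.9 CPM with AKG, 72.2, 68.9, 30.6 and 72.6 CPM without glutamine and 74.0, 67.4, 47.6 and 65.3 CPM with glutamine. Replicate 3 was the lowest library in the media without AKG, and the groups overlapped.

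Socs6 had 55.9, 49.9, 52.9 and 49.97 CPM with AKG, 64.0, 58.0, 37.2 and 50.3 CPM without glutamine and 72.0, 60.3, 46.1 and 56.2 CPM with glutamine. Socs7 ran from 27.9 to 35.3 CPM with AKG, from 30.0 to 34.98 CPM without glutamine and from 28.1 to 36.8 CPM with glutamine. Both overlapped in all 3 groups. Without glutamine against with it, 2 SE ran from -0.49 to 0.17 for Socs6 and from -0.17 to 0.24 for Socs7 on the log2 scale. For Socs3 without the block the same range was far wider, -2.12 to 1.11.

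**Figure D5:**
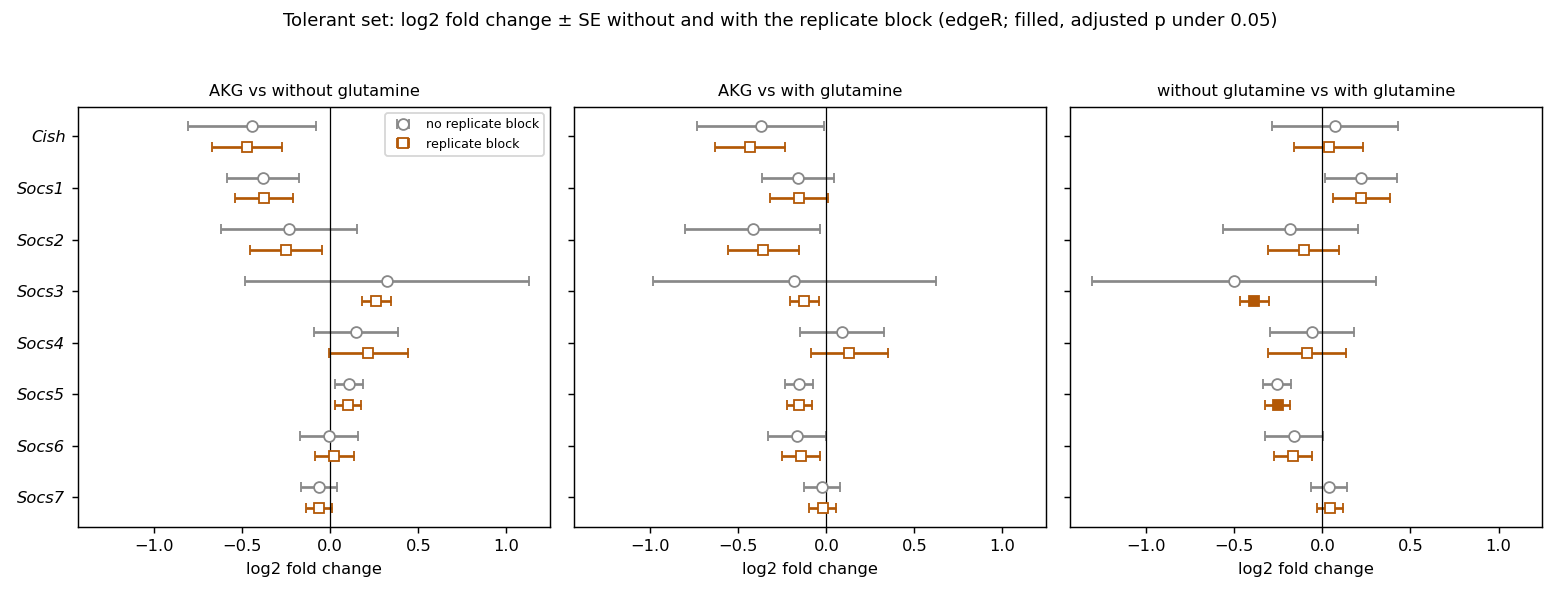
Log2 fold change ± SE of each gene in the 3 tolerant comparisons, without the replicate block (circles) and with it (squares), filled where the adjusted p was under 0.05. The bar of Socs3 shrinks from an SE of 0.81 to 0.08 with the block, and only Socs3 and Socs5 without glutamine against with it are filled.

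Of the pathway lists given here, few genes moved in the tolerant set. The exception among the 9 tested cytokine ligand genes was Il6, 1 of 9 called in each comparison with the group without glutamine. Il6 had 0.309, 0.241, 0.162 and 0.290 CPM with AKG, 0.569, 0.869, 3.43 and 6.08 CPM without glutamine and 0.187, 0.273, 0.498 and 0.438 CPM with glutamine, in replicates 1 to 4. All 4 libraries without glutamine were above every library of the other media, and replicates 3 and 4 were the highest of them. Il6 rose without glutamine against with it (log2 fold change 2.95, SE 0.69, adjusted p = 0.035) and fell with AKG against without glutamine (-3.43, SE 0.71, adjusted p = 0.042). With AKG against with glutamine it had -0.48 (SE 0.72, adjusted p = 1). With a library left out the rise had an adjusted p of 0.021 to 0.092 and the fall of 0.022 to 0.14, and of these the rise passed without replicate 1 or 2 of the group without glutamine and the fall without its replicate 1. In fits of the compared groups alone neither passed (adjusted p = 0.11 each), the fall missed with no filter (adjusted p = 0.051), and with the replicate block the rise had adjusted p = 0.0053 and the fall 0.0054.

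With AKG against without glutamine Ptpn6 rose (0.35, SE 0.07, adjusted p = 0.035), 1 of 13 other brakes. In the same comparison Stat3 had 0.07 (SE 0.17, adjusted p = 0.91) and the 10 STAT3 targets had a median of 0.13, with none called. Of 8 tested STAT6 targets none was called in any of the 3 comparisons. Without glutamine against with it, none of the 20 receptor chains, 11 kinase and STAT genes, 13 other brakes and 6 ligase subunits was called.

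Stromal fibroblast markers, 10 genes led by collagens, moved with the medium and the replicate number. Their summed level was 111 to 397 CPM with AKG, 50.4 to 210 CPM without glutamine and 397 to 2079 CPM with glutamine, and 5 of the 8 tested fell without glutamine against with it. In every medium it was higher in replicates 3 and 4 than in 1 and 2, for example 2079 and 2050 against 397 and 435 CPM with glutamine. No marker of the list was at 0 in every library of a group. Their part in the values of Socs3, Cish, Socs2 and Socs5 was not tested.

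The genes whose pattern was most like each member were ranked by Pearson's r of log2 CPM over the 18 libraries, each table centred on its own mean, among the 9172 genes whose mean log2 CPM was 2 or more in each table. The libraries share the groups and the replicate numbers, so these values describe and carry no test. For Socs3 they were Mxd1, which encodes a partner of MAX (r = 0.995), the corepressor gene Tle3 (0.986) and Atp11a (0.985), with r of 0.98, 0.98 and 0.94 in the tolerant set alone. For Socs2 they were Prps1 (0.988), Pde12 (0.987) and Rrp8 (0.985). Socs1 was followed by 5830432E09Rik (0.959), Csf2rb (0.956) and Insl6 (0.951), of which Csf2rb had r = 0.77 in the tolerant set and the others 0.45 and 0.28. Cish was followed by Tarbp2 (0.966), the kinase gene Fyn (0.958) and Vrk1 (0.940).

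The long members had other companions. Socs4 was most like Fnip1 (0.980), BC003331 (0.979) and Cfap97 (0.978), and Socs6 most like the inositol transporter gene Slc5a3 (0.969). Socs5 was most like Polr3k (0.954) and the protein disulfide isomerase gene Pdia4 (0.948), and Socs7 most like Ppm1h (0.942) and the kinase gene Pim1 (0.938). For every companion named except Fnip1, r was lower in the tolerant set than in the stimulation set. In the tolerant set it was 0.45 to 0.82 for Cish, 0.28 to 0.77 for Socs1 and 0.77 to 0.88 for Socs2, all of them low there.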

How the data were processed

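Total RNA of the 18 libraries was made into stranded TruSeq libraries, per the labels' protocols. Deposited values are raw counts per gene in 2 tables. Per the submitters' processing notes the authors used the aligner STAR, the counter HTSeq and the build mm10 for these counts. Whether counting used the strand, and which tool versions, was not given in the sources used here. All 8 members and the gene lists were chosen with earlier results of these data known.

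All groups of a table entered a single fit in edgeR 4.0.16 under R 4.3.3, with filterByExpr, TMM factors and the robust quasi-likelihood F test, and p-values were adjusted by Benjamini-Hochberg over all genes tested (12492 tolerant, 12506 stimulation). A gene was called at an adjusted p under 0.05. SE are those of the log2 fold change. Lengths came from protein-coding transcripts of GENCODE vM21. The code was tested on simulated data. No pair of replicates was a copy of another (21 pairs, chi-square per degree of freedom of 7.68 to 173). Precision follows the counts: at 28.3 to 39.8 M counts a library, the lowest member value was 8 counts, and p-values do not cover animals or cultures that the labels do not name.

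Replicate numbers come from the sample titles. Deviations from group means correlated by 0.501 to 0.823 in all 12 same-number pairs of the tolerant set, and by 0.465 to 0.836 between the other numbers within replicates 1 and 2 or 3 and 4 (-0.838 to -0.567 across them). In the stimulation set they were -0.662 to 0.501. Named pathway genes were the 3 with the smallest adjusted p among called genes of a list in a comparison, and Il4ra, Stat3, Stat6, Il6, Il10 and Arg1; 1 other named gene and its target list are not reported here. The 3 most correlated genes were listed for each member. Alternatives were RLE size factors, no filter, DESeq2 1.42.0, the 2 compared groups alone, the replicate block, replicates 1 and 2 or 3 and 4 alone and each library left out. A crossed block, the interaction with the replicate numbers and the alternatives for Il6 were added after seeing the data. Plots used matplotlib 3.10.9 (Python 3.11.15).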

Additional observations from a re-analysis of the deposited data

Results flagged for a closer look

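Socs4 in tolerant cells without glutamine had 30.6 CPM in replicate 3, far below the other 3 libraries of that group (68.9 to 72.6 CPM), the gap being most of the range of the group. In the same replicate number Socs4 was also lowest with glutamine (47.6 CPM) but highest with AKG (75.8 CPM). In total 24 values of a gene in a group of 4 were examined, and chance alone marks about 1 in 20.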

How the results depend on the processing

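In the stimulation set Cish, Socs1 and Socs2 with IL-4, and Socs1, Socs3 and Socs7 with LPS, kept their direction and call under RLE size factors, no filter, DESeq2, the replicate block, the 2 groups alone and each library left out. With 1 library of a group left out, the remaining one is assumed to vary like the other groups. Members called then numbered 3 to 4 of 8 for IL-4 against untreated, 3 to 5 for LPS against untreated, 5 to 5 for IL-4 against LPS and 0 to 0 in each tolerant comparison. Over those settings Cish ran from -0.24 to 2.06 for LPS against untreated. Socs4, never called, ran from -0.68 to 0.35 for IL-4 against untreated, from -0.28 to 0.56 for LPS against untreated (-0.014 with no filter) and from -0.69 to 0.15 for IL-4 against LPS. With the replicate block Socs5 for LPS against untreated had -0.35 (adjusted p = 0.051), and no other call changed there. Same-numbered untreated and LPS libraries deviated together from their group means (r = 0.501). The IL-4 libraries deviated against the same-numbered untreated (-0.662) and LPS (-0.366) libraries. With 2 libraries a group, the other numbers give the same r with the opposite sign, so these values cannot show whether the numbers mark pairs. A crossed block, in which the IL-4 libraries took each other's number, was added after seeing the data. It called the same number of members for IL-4 against untreated (4) and against LPS (7). Of all genes it called 3965 in the first, beside 2518 without a block. The crossing was chosen by the sign of these correlations, so the larger count is no evidence for it.

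In the tolerant set, members called without glutamine against with it numbered 0 in the fit reported, 2 with the replicate block, 1 with DESeq2 and 1 within replicates 1 and 2. The block changed no other call of a member. In the tolerant reversals that follow, neither value was called. Without glutamine against with it, replicates 1 and 2 alone gave -0.0065 for Socs1, 0.27 for Socs2 and -0.069 for Socs7, and replicates 3 and 4 gave -0.11 for Cish. Leaving out a library gave -0.071 to 0.26 for Cish, -0.41 to 0.12 for Socs2, -0.16 to 0.17 for Socs4 and -0.021 to 0.10 for Socs7. With AKG against without glutamine, Socs6 was 0.0046 with RLE size factors and with DESeq2, 0.0053 with no filter, 0.024 with the replicate block and 0.24 within replicates 3 and 4. Replicates 1 and 2 gave 0.0063 for Socs1, -0.079 for Socs4 and -0.035 for Socs5. Leaving out a library gave -0.10 to 0.75 for Socs3, -0.077 to 0.23 for Socs4 and -0.14 to 0.10 for Socs6. With AKG against with glutamine, replicates 1 and 2 gave 0.064 for Socs2 and -0.085 for Socs4, and replicates 3 and 4 gave 0.038 for Socs6 and 0.059 for Socs7. Leaving out a library gave -0.60 to 0.28 for Socs3, -0.023 to 0.17 for Socs4 and -0.085 to 0.047 for Socs7. The cause was not tested.

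Over all genes, without glutamine against with it 587 were called, 2707 with the replicate block, 1260 with DESeq2, 243 with the 2 groups alone, 3526 within replicates 1 and 2, 1670 within replicates 3 and 4 and 229 to 468 with a library left out. With AKG against without glutamine 186 were called, 123 with no filter, 1917 with the block, 682 with DESeq2, 60 with the 2 groups alone, 2908 and 703 within replicates 1 and 2 and within 3 and 4, and 28 to 116 with a library left out. With AKG against with glutamine 0 were called, 876 with the block, 232 with DESeq2, and 1433 and 790 within replicates 1 and 2 and within 3 and 4. Leaving out a library gave 944 to 2751 called genes for IL-4 against untreated, 4574 to 6567 for LPS against untreated and 4662 to 5106 for IL-4 against LPS, to be read beside the member counts above. Of 48 member levels, 13 moved by more than 1 SD when scaled by library totals in place of TMM, at most 1.26-fold. The TMM factors were 0.791 and 0.822 with LPS and 1.09 to 1.13 in the other stimulation libraries. Levels with LPS thus moved in the opposite direction to those untreated or with IL-4, and differences from LPS moved by more than either level. The small differences of Socs7 from LPS depended on this choice. Depth limits Cish, at 8 to 40 counts in untreated and LPS libraries.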
